A study of Homo sapiens with 47 samples.

Results

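The short arm of chromosome 3 holds a stretch from band 3p21 towards the centromere that is dense in genes at its 3p21 end, and its protein-coding genes are described here in HEK293T cells with a mutated EAF1 gene. Members were protein-coding genes whose lower coordinate on chromosome 3 (GRCh38) lies from 48000000 to 90000000, without genes whose symbols start with RPL or RPS. They number 229 of 58395 genes counted, of which 19773 are protein-coding. The stretch was chosen by the fold changes of the same 6 libraries that are reported below, in which genes of the arm had lower counts in mutant cells. The members' fold changes, and the calls made from them with the fit over all genes, are therefore a description and no evidence about the stretch. The study asked how the transcription elongation factor EAF1 and the Mediator complex act at replication-dependent histone genes, none of which is a member. It compared by RNA-seq 3 libraries of HEK293T, a human embryonic kidney cell line, with 3 libraries of a line derived from it in which EAF1 is mutated. In the mutant line residues of EAF1 are replaced by alanines through a CRISPR knock-in, and both alleles are mutated. That line is a single clone, so a property of the clone and an effect of the mutation cannot be told apart. The labels do not say that libraries of a line come from separate cultures, although the paper's methods speak of biological replicates, so the spread between libraries and the p values may be technical. No file used here measures DNA, and the number of copies of the stretch in either line was not tested.

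Stretches of 3p are lost in many carcinomas of the lung, kidney and other organs, and several tumour suppressors lie between the bounds used here, among them PBRM1, BAP1 and the genes of the 3p21.3 cluster around RASSF1. The genes have no common function: subunits of chromatin, mitochondrial and proteasome complexes stand beside small GTPases, splicing factors and receptors for axon guidance.

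RNA was depleted of ribosomal RNA and the authors deposited raw counts per gene. The 3 wild-type libraries held 59137210, 52541541 and 55637032 counts in all, and the 3 EAF1-mutant libraries held 57198018, 53369621 and 66611451. Levels below are CPM, that is counts scaled to the library size after TMM, and levels between genes are compared per kilobase of exon (RPKM). Between replicates of a group the biological coefficient of variation was 4.11%. Of the neural and kidney genes known in HEK293 cells, VIM had 374, 376 and 391 CPM in the wild-type libraries and 197, 197 and 204 CPM in the mutant ones. NEFM had 56.2, 65.9 and 65.1 and 24.6, 25.2 and 25.6 CPM. VIM and NEFM thus had less RNA in every mutant library, with log2 fold changes of -0.93 and -1.31. The part of these 2 genes in the results was not tested. NEFL and INA were present in both lines, and PAX2 had means of 0.68 CPM in wild-type and 0.87 CPM in mutant cells. Log2 fold changes of NEFL, INA and PAX2 were -0.15, -0.03 and 0.33, none past the thresholds given below. Among genes of blood and liver, PTPRC, HBB, ALB and LYZ had means from 0 to 0.182 CPM, and the means of CD74 were 1.12 CPM in wild-type cells and 1.20 CPM in mutant ones. In bulk RNA, fewer cells of a type and less RNA per cell cannot be told apart.

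Of the 229 members, 203 passed edgeR's filter on low counts and 26 did not. The 26 had means over the 6 libraries of at most 0.137 CPM, and no fold change is given for them. Since a gene can pass this filter through the group in which it is high, the 203 are not all members. A gene is called lower or higher here when its adjusted p is under 0.01 and its log2 fold change exceeds 0.5 in size, the thresholds of the study. By that rule 160 of the 203 were lower, 3 higher and 40 neither. Over all 28025 tested genes 9.36% were lower and 11.0% higher. With the limit on adjusted p at 0.05 and any fold change, 183 members were lower and 4 higher, beside 25.6% and 25.9% of all tested genes. All 3 mutant libraries lay below all 3 wild-type libraries for 186 members and above them for 4, against 28.1% and 29.2% of all tested genes. Because the stretch was selected on this contrast, nothing is read from these shares.

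The median log2 fold change of the 203 was -0.81, with quartiles of -0.96 and -0.61, and 195 were below 0. On a linear scale the median corresponds to 57.2% of the wild-type level and the quartiles to 51.5% and 65.4%. The share of counts on members was 1.00%, 0.991% and 1.00% in the wild-type libraries and 0.612%, 0.611% and 0.613% in the mutant libraries. These shares, which are taken of the library totals, were close to each other within a line and did not overlap between lines. Each mutant library, set against the mean of the wild-type libraries over the 184 members with a mean of at least 1 CPM, gave a similar median, at -0.83, -0.81 and -0.83. A wild-type library set against the other wild-type libraries gave medians of 0.02, -0.02 and 0.01. When library totals alone replace TMM, the median of all tested genes moves from 0.01 to 0.13 and that of the members to -0.69. The members' median relative to that of all genes is -0.82 under both scalings. The scaling also moves the calls over all genes, from 2624 lower and 3071 higher with TMM to 1840 lower and 4169 higher with library totals.

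**Figure D1:**
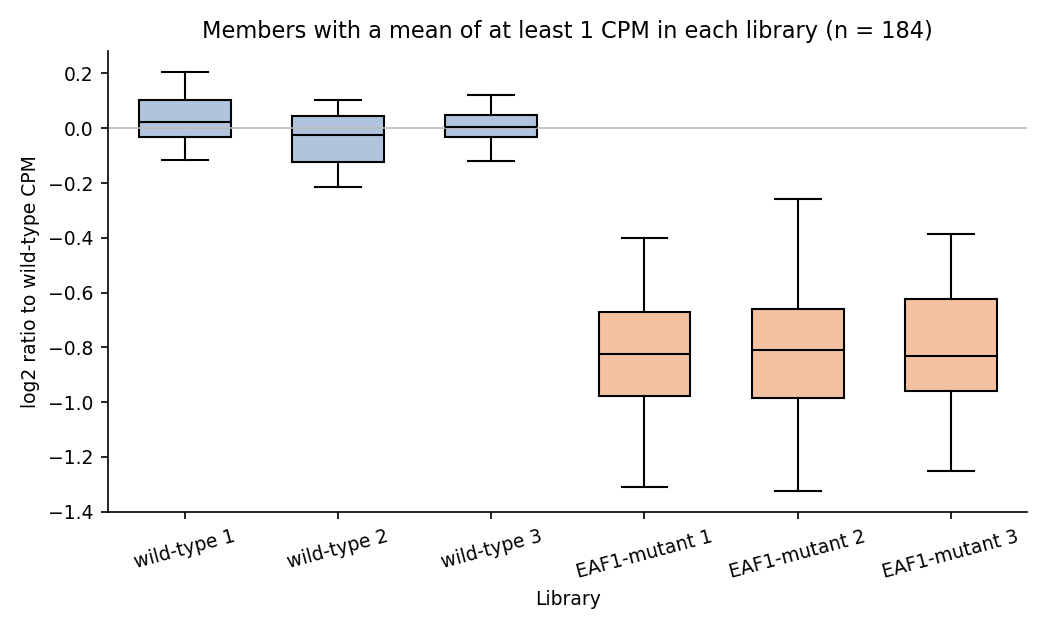
Log2 ratio of each library to the mean of the wild-type libraries (for a wild-type library, the mean of the other wild-type libraries), for the 184 members with a mean of at least 1 CPM. The 3 wild-type libraries centre on 0 and the 3 EAF1-mutant libraries on -0.83, -0.81 and -0.83, with interquartile ranges of 0.306, 0.324 and 0.334.

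The fall was even in the sense that most members lay close to the median of the stretch. A total of 131 of the 203 were within 0.25 of the median on the log2 scale, 44 between 0.25 and 0.5 from it (25 above and 19 below), 17 more than 0.5 above it and 11 more than 0.5 below it. Members over 0.5 above the median are called buffered below, a name that also takes in the 3 that were higher in mutant cells, and those over 0.5 below it are called steeper. The interquartile range was 0.346, and 0.511 over the 15236 other tested protein-coding genes, whose median was 0.01. The median standard error of a member's log2 fold change was 0.05. Standard errors were derived from edgeR's quasi-likelihood test, as the size of the log2 fold change divided by the square root of the F statistic. Within 2 of its own standard errors of the median lay 81 members, so the spread among members is wider than the error between libraries.

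The spread narrowed with the amount of RNA. Among the 184 members whose mean reached 1 CPM, the median was -0.83 and the interquartile range 0.325. For the 138 with at least 10 CPM the median was -0.82, the interquartile range 0.225 and the whole range -1.88 to -0.19, and 123 of them were lower. In all 138, the 3 mutant libraries lay below the 3 wild-type libraries, against 28.1% of all tested genes. By the calling rule 9.36% of all tested genes were lower, and both shares are over genes of every level. For the 22 members with at least 100 CPM the median was -0.87 and the interquartile range 0.15, and 21 of them were lower. The other protein-coding genes with at least 10 CPM had an interquartile range of 0.400. The 19 tested members under 1 CPM had a median of -0.22, an interquartile range of 0.779 and a median standard error of 0.31, and 11 of the 17 buffered members are among them. Of these 19, 1 was lower, 2 were higher and 16 neither, and the standard errors limit what their values show.

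**Figure D2:**
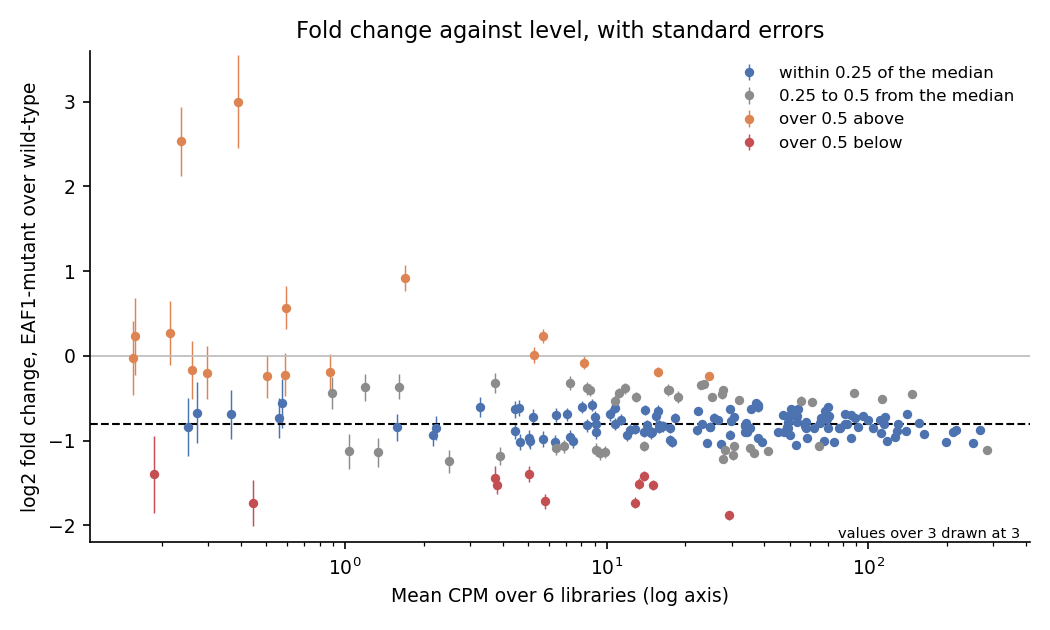
Log2 fold change of the 203 tested members, EAF1-mutant over wild-type, against their mean CPM over the 6 libraries on a log axis, with values over 3 drawn at 3. The dashed line marks the median of -0.81 and the grey line no change. Colours mark the distances of 0.25 and 0.5 from the median, and bars are standard errors. Points close in on the median as the level rises, and most buffered members are at the left.

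Members nearest the median show what the even fall looks like in single genes. CGGBP1, a protein that binds CGG repeats, had 145, 148 and 145 CPM in the wild-type libraries and 84.8, 83.5 and 81.7 CPM in the mutant libraries. ARF4, a small GTPase of the Golgi, had 102, 105 and 102 CPM against 62.1, 56.8 and 58.6 CPM. In both genes the 2 lines are far apart relative to the spread within a line, and the log2 fold changes are -0.81 and -0.81. TRAIP, a ubiquitin ligase of replication forks, NISCH, a membrane-associated protein that binds integrin, and AMIGO3, an adhesion protein, complete the 5 nearest members, with -0.81, -0.80 and -0.80.

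The 10 members with the highest level per exon length in wild-type cells were GNL3 (104 RPKM), TMA7 (79.0), IMPDH2 (75.6), GPX1 (73.8), RHOA (71.5), UQCRC1 (49.1), CDC25A (40.9), ARF4 (39.8), WDR6 (37.2) and NDUFAF3 (36.3). GNL3, a GTPase of the nucleolus (ENSG00000163938, chromosome 3, 52681156 to 52694497), had 340.0, 341 and 326 CPM in the wild-type libraries and 168, 159 and 167 CPM in the mutant libraries. RHOA, a GTPase that organises the actin cytoskeleton (ENSG00000067560, chromosome 3, 49359139 to 49412998), had 337, 346 and 349 CPM in the wild-type and 192, 184 and 188 CPM in mutant libraries. The 3 libraries of a line lay close together in both genes and the lines did not overlap, with log2 fold changes of -1.03 and -0.87. GPX1, a selenium-dependent glutathione peroxidase, had 109, 95.7 and 112 CPM against 64.3, 65.1 and 66.7 CPM. CDC25A, the phosphatase that activates cyclin-dependent kinases at entry into S phase, had 171, 171 and 167 CPM against 128, 121 and 125 CPM. Its lines did not overlap either, but the difference was smaller: CDC25A had a log2 fold change of -0.44, and was the only gene of these 10 that was not called lower. The other log2 fold changes were -0.85 for TMA7, a small protein tied to translation, -0.69 for GPX1 and -0.79 for WDR6, which works with a methyltransferase of transfer RNA. For NDUFAF3, an assembly factor of respiratory complex I, the value was -0.83.

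**Figure D3:**
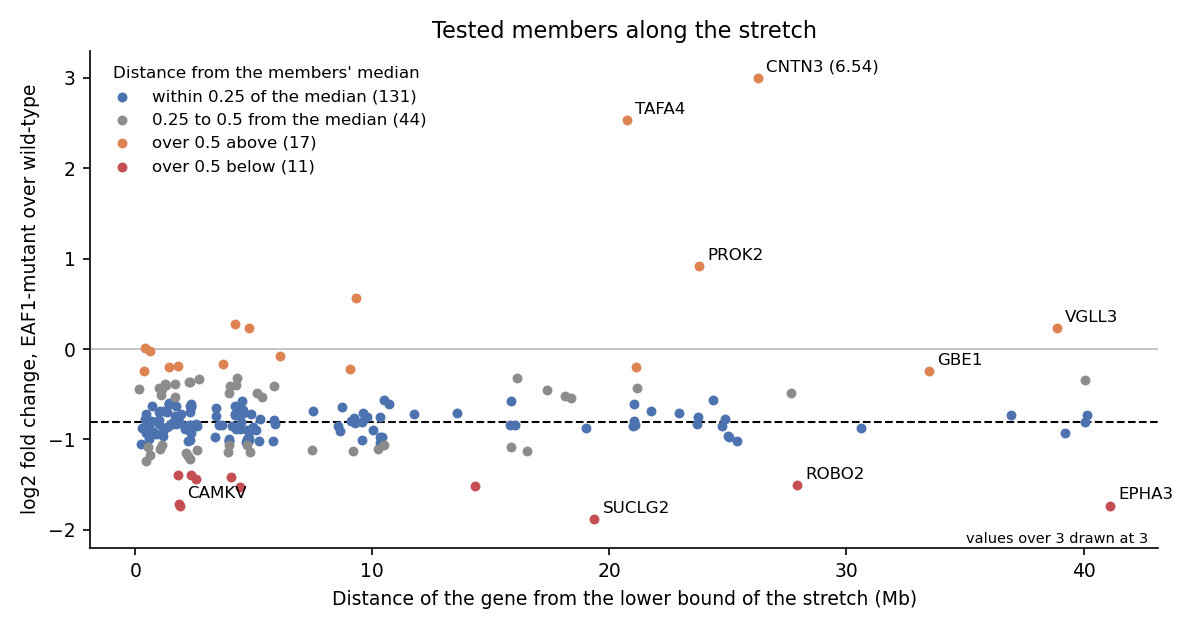
Log2 fold change of the tested members, EAF1-mutant over wild-type, in their order along the stretch from 48 to 90 Mb; values over 3 are drawn at 3. Most points follow the line at the median of -0.81 from end to end, and the steeper and buffered genes are scattered along the stretch.

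Medians along the stretch lay between -0.85 and -0.71. They were -0.80 for the 57 tested members from 48 to 50 Mb, -0.85 for 37 from 50 to 52 Mb, -0.79 for 40 from 52 to 54 Mb and -0.80 for 26 from 54 to 60 Mb. Farther towards the centromere, where genes are sparse, they were -0.71 for 21 members from 60 to 70 Mb, -0.80 for 14 from 70 to 80 Mb and -0.73 for 8 from 80 to 90 Mb. Across the 184 members with at least 1 CPM, Spearman's rank correlation of the log2 fold change was 0.024 with position, 0.0081 with mean CPM, -0.109 with wild-type RPKM, 0.169 with exon length and 0.149 with the span of the gene. Between a member and the next along the chromosome the rank correlation was 0.082 (n = 183). The differences among members nonetheless recurred between libraries: ratios computed from 3 separate pairs of a mutant and a wild-type library ranked the 184 members alike, with rank correlations of 0.746, 0.826 and 0.835 between them. These are correlations across genes, which are not independent replicates, and they are given as descriptions.

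At the bound of 48 Mb the last protein-coding genes outside are MAP4, DHX30 and SMARCC1, with log2 fold changes of -0.88, -0.66 and -0.79. The genes just inside are CDC25A (-0.44), CAMP, which was not tested, and ZNF589 (-1.05), so the lower counts extend past this bound. At 90 Mb the last members are C3orf38 (-0.73), CSNKA2IP, which was not tested, and EPHA3 (-1.73). The genes beyond, among them PROS1 and STX19, lie across the centromere, and PROS1 and STX19 had 0.47 and 0.19. Over longer ranges, the 140 tested protein-coding genes between EAF1 and 48 Mb had a median of -0.70, the 76 between the telomere and EAF1 one of -1.62, and the 434 on the long arm one of 0.05. Their interquartile ranges were 0.428, 0.458 and 0.493, all wider than the 0.346 of the stretch, and these differences were not tested. RPL29, the ribosomal protein gene left out by the rule, had 649 ± 27.2 CPM (SD, n = 3) in wild-type and 398 ± 4.27 CPM in mutant cells, a log2 fold change of -0.71.

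Genes of other kinds in the same stretch differed in their counts of called genes, for which 9.36% lower and 11.0% higher over all tested genes are again the background. Of 124 long noncoding RNA genes 70 were tested, and 35 of these were lower and 3 higher, with a median of -0.72. Of 12 small nucleolar RNA genes 7 were tested and 6 were lower, with a median of -0.88. Among 105 processed pseudogenes 39 were tested, and 7 were lower and 1 higher, with a median of -0.45. Of the tested genes of microRNAs (9), small nuclear RNAs (6) and other small RNAs (8, misc_RNA), 1 microRNA gene was lower, and the medians were -0.38, -0.67 and -0.33. Reads of a processed pseudogene may come from its parent gene elsewhere, since it is not stated how strand and multiply mapped reads were treated in the counting. For the same reason counts are uncertain for the 89 tested members that share exon bases with another protein-coding gene. Their median was -0.82 and their interquartile range 0.283, against -0.80 and 0.364 for the 114 that share none with a protein-coding gene (overlap with other kinds of gene was not counted). Among genes named here, WDR6, USP4, AMIGO3, IFRD2, PPP4R2, RBM5, RBM6, ATRIP and TREX1 share exon bases with a protein-coding gene on the same strand. By symbol, SUCLG2, GPX1, GNAI2, WDR82, NEK4, ARF4 and PPP4R2 have several pseudogenes.

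The members that departed most from the stretch upwards were 3 genes with little RNA. PROK2 encodes prokineticin 2, a secreted ligand of G protein-coupled receptors (ENSG00000163421, chromosome 3, 71771655 to 71785206), and had 1.06, 1.21 and 1.25 CPM in the wild-type libraries and 2.43, 2.37 and 1.88 CPM in the mutant libraries. All mutant libraries were above all wild-type libraries. The log2 fold change was 0.92, with a standard error of 0.15. TAFA4 and CNTN3 are under 1 CPM in wild-type cells and were named after their values were seen. TAFA4, a secreted chemokine-like protein (ENSG00000163377, chromosome 3, 68731766 to 68953297), had 6, 3 and 2 counts in the wild-type libraries and 26, 20 and 29 counts in the mutant libraries, a log2 fold change of 2.53. The standard error was 0.41, and TAFA4 passed the filter through its mutant libraries. CNTN3, contactin 3, an adhesion molecule of the immunoglobulin family (ENSG00000113805, chromosome 3, 74262568 to 74614659), had 0, 0 and 1 counts in the wild-type libraries and 45, 39 and 60 counts in the mutant libraries. The gene is thus nearly silent in wild-type cells and present at a low level in mutant cells. With 1 count in all wild-type libraries together, the ratio of mutant to wild-type rates was 125.5, with an exact 95% interval of 22.2 to 4992. The interval covers counting error only and does not allow for the choice of the gene, which passed the filter through its mutant libraries.

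The promoters of these 3 genes are shown beside that of RHOA, an abundant gene that fell with the stretch, and that of SUCLG2, the member with the lowest log2 fold change. Each is 300 bases from RefSeq (GRCh38.p14), 250 before and 50 after the start of the gene, written 5′ to 3′ on the minus strand, from which all 5 genes are read. Capitals mark CG dinucleotides, the sites of DNA methylation. The start is that of RefSeq, which for RHOA, PROK2 and TAFA4 lies inside the longer gene of GENCODE. The promoters lie at chr3:49411927-49412226 (RHOA), chr3:67654563-67654862 (SUCLG2), chr3:71785099-71785398 (PROK2), chr3:68932498-68932797 (TAFA4) and chr3:74614610-74614909 (CNTN3).
RHOA: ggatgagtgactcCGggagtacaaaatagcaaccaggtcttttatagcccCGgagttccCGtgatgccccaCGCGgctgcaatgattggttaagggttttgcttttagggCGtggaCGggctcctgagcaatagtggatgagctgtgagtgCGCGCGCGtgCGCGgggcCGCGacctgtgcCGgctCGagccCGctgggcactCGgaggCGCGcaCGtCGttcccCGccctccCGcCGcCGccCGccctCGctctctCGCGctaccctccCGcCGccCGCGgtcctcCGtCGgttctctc
SUCLG2: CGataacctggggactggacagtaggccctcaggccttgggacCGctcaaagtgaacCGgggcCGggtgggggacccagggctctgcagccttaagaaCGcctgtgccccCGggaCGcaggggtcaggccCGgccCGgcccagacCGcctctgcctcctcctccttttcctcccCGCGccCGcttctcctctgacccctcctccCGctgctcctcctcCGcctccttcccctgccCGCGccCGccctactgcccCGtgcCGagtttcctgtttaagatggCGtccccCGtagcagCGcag
PROK2: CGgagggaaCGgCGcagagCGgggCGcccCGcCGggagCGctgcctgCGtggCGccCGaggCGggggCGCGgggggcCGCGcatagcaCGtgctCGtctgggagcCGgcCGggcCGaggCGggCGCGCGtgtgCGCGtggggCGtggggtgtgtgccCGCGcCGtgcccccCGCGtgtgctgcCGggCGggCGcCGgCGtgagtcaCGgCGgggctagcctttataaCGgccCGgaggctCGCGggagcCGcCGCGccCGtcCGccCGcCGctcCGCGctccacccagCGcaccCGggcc
TAFA4: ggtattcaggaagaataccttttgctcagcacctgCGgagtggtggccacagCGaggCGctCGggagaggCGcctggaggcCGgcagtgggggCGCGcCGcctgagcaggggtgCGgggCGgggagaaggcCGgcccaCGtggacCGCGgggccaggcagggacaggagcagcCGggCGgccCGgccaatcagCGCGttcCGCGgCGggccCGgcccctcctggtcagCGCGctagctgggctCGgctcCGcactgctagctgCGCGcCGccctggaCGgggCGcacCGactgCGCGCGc
CNTN3: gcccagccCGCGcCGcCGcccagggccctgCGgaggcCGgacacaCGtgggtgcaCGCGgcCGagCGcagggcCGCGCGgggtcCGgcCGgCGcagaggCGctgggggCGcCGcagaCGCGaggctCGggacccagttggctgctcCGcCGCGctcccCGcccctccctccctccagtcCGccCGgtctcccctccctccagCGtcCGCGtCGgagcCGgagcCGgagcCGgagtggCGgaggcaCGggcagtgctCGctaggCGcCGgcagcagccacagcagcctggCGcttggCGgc

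All 5 promoters are rich in CG dinucleotides, whichever way the gene went: RHOA has 37, SUCLG2 23, PROK2 55, TAFA4 37 and CNTN3 43, where the median of 35116 RefSeq promoters of the same length is 14. The ratio of observed to expected CG was 1.10, 0.657, 1.09, 0.874 and 0.890 in the same order. RefSeq promoters were found for 190 members. Their median was 25 CG dinucleotides and a ratio of 0.806, and the ratio exceeded 0.6 in 70.5% of them and in 48.9% of all promoters. The median ratio was 0.861 for the 107 even members with a promoter, 0.655 for 10 steeper, 0.633 for 16 buffered and 0.258 for 19 that were not tested. For the 6 buffered members with at least 1 CPM the median was 0.799, and the ratio exceeded 0.6 in 83.3% of them and in 82.2% of the even members. Across the 156 members with a promoter and at least 1 CPM, the ratio had a rank correlation of 0.0090 with the log2 fold change. The letters TATAAA, searched on both strands, occur in the promoters of RHOA and PROK2, in 7.89% of the members' promoters and in 11.5% of all, and in 4 of the 16 buffered ones. A match is a description of the sequence and not a bound site.

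Beside PROK2, the buffered members with at least 1 CPM were VGLL3, PLXNB1, CACNA2D3, TCTA and GBE1. VGLL3, a cofactor of TEAD transcription factors (ENSG00000206538, chromosome 3, 86876388 to 86991149), had 5.48, 5.22 and 5.08 CPM in the wild-type libraries and 5.89, 6.33 and 6.30 CPM in the mutant libraries. The mutant libraries were all above the wild-type ones, yet the log2 fold change of 0.23 did not reach the threshold of 0.5. PLXNB1, the receptor of semaphorin 4D (ENSG00000164050, chromosome 3, 48403854 to 48430086), had 5.80, 4.63 and 5.38 CPM in the wild-type and 4.85, 5.41 and 5.63 CPM in mutant libraries. CACNA2D3, an auxiliary subunit of voltage-gated calcium channels (ENSG00000157445, chromosome 3, 54122552 to 55074557), had 8.45, 7.87 and 9.01 and 7.41, 8.31 and 8.27 CPM. In PLXNB1 and CACNA2D3 the lines overlap, with log2 fold changes of 0.01 and -0.08. GBE1, the glycogen branching enzyme (ENSG00000114480, chromosome 3, 81489703 to 81761645), had 25.5, 27.0 and 27.2 CPM in the wild-type and 22.2, 23.5 and 21.8 CPM in mutant libraries. TCTA, a small membrane protein, had 15.5, 17.3 and 17.4 and 13.9, 15.2 and 14.7 CPM. The lines did not overlap in these 2 genes, but the difference was small, at -0.24 and -0.19. TCTA lies head to head with RHOA and shares exon bases with it, so that reads of RHOA may count for it. The next 4 in the order begin with GLYCTK (-0.32), glycerate kinase, which overlaps WDR82, and PRICKLE2 (-0.32), of planar cell polarity. DOCK3 (-0.33), an exchange factor for Rac in neurons, and ZNF654 (-0.34), a zinc finger protein that overlaps CGGBP1, follow. None of these 4 passed the threshold of a lower gene, and each was below 0.

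Among members with a mean of at least 1 CPM, the steepest fall was that of SUCLG2, the GTP-specific beta subunit of succinyl-CoA synthetase in the citric acid cycle (ENSG00000172340, chromosome 3, 67360460 to 67654612). It had 45.8, 47.2 and 45.0 CPM in the wild-type libraries and 13.9, 11.9 and 11.7 CPM in the mutant libraries. The lines are far apart, and the mutant cells held 27.2% of the wild-type level, a log2 fold change of -1.88 with a standard error of 0.06. EPHA3, a receptor tyrosine kinase for ephrins and the last member before the centromere (ENSG00000044524, chromosome 3, 89107621 to 89482134), had 19.03, 20.2 and 19.8 CPM against 6.23, 5.92 and 5.63 CPM. CAMKV, a vesicle protein related to calmodulin kinases (ENSG00000164076, chromosome 3, 49857988 to 49869935), had 8.52, 8.57 and 9.60 CPM against 2.55, 2.82 and 2.75 CPM. All mutant libraries of both were far below the wild-type ones, and the log2 fold changes were -1.73 and -1.72. SEMA3G, a secreted semaphorin, had 6.17, 5.32 and 5.46 CPM against 2.07, 1.98 and 1.85 CPM. ROBO2, a receptor of SLIT proteins, had 18.8, 19.3 and 21.1 CPM against 6.87, 7.14 and 6.81 CPM. Both fell in every mutant library, with -1.53 and -1.51. The others of the lowest 10 with at least 1 CPM were C3orf14 (-1.52), C3orf18 (-1.44), DUSP7 (-1.41), a phosphatase of ERK kinases, CACNA2D2 (-1.39), the paralog of CACNA2D3, and TREX1 (-1.24), a DNA exonuclease that shares exon bases with ATRIP. Under 1 CPM, MST1R, a receptor tyrosine kinase that was named after its value was seen, had 0.778, 0.613 and 0.673 CPM against 0.168, 0.216 and 0.232 CPM and a log2 fold change of -1.73 with a standard error of 0.27.

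Functions were compared through 9 lists that place 159 of the 229 members, some in several, and leave 70 in none. Each list is given by its counts and its median, beside the median of -0.81 and the 160 lower of 203 for all tested members. Over all tested genes 9.36% were lower, and nothing is read from the difference, since the stretch was selected on this contrast.

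**Figure D4:**
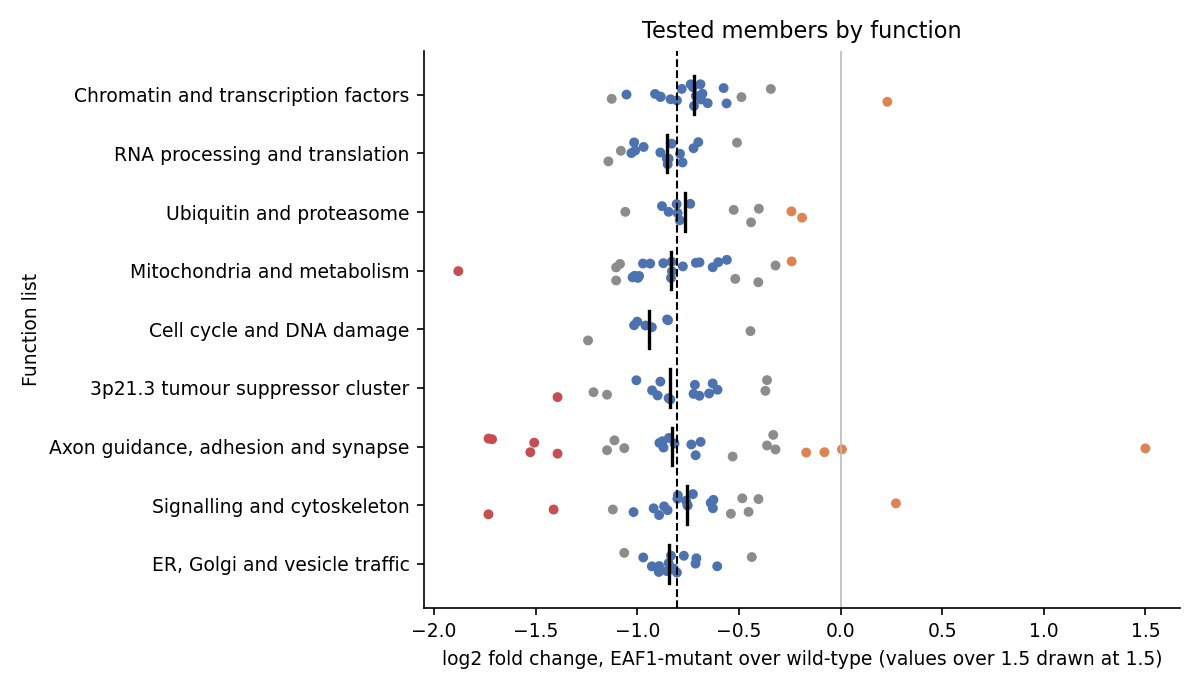
Log2 fold change of the tested members of each function list, EAF1-mutant over wild-type, each point a gene and each bar the list's median. Medians lie between -0.94 and -0.72, and the list of axon guidance, adhesion and synapse genes spreads widest.

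Chromatin proteins and transcription factors had 21 tested members, of which 18 were lower, with a median of -0.72. PBRM1, the bromodomain subunit of the PBAF remodeller (ENSG00000163939, chromosome 3, 52545352 to 52685917), had 167, 179.6 and 174 CPM in the wild-type libraries and 109, 109 and 108 CPM in the mutant libraries. WDR82, a subunit of SET1 histone methyltransferases, had 162, 171 and 168 CPM against 91.2, 89.0 and 91.0 CPM. Neither gene's lines overlapped, with log2 fold changes of -0.68 and -0.89, and TASOR, a subunit of the HUSH silencing complex, had -0.91. The 3 that were not called are VGLL3, ZNF654 and, named after its value was seen, ZNF717 (-0.49).

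RNA processing and translation had 16 tested members, all 16 lower, with a median of -0.85. Besides GNL3 and WDR6 the most abundant were RBM5 and RBM6, adjacent splicing regulators of 3p21.3. RBM5 had 184, 179.7 and 179 CPM in the wild-type libraries and 99.0, 94.5 and 100.1 CPM in the mutant libraries. RBM6 had 145, 146 and 141 CPM and 87.0, 87.1 and 88.3 CPM. Each of the 2 genes was lower in every mutant library, by log2 fold changes of -0.89 and -0.72, and they share exon bases with each other.

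Ubiquitin and proteasome genes had 12 tested members, 8 of them lower, with a median of -0.77. ARIH2, a RING-between-RING ubiquitin ligase, had 165, 162 and 166 CPM against 93.8, 94.2 and 95.1 CPM, and PSMD6, a subunit of the 19S proteasome particle, had 135, 136 and 132 CPM against 74.8, 74.7 and 74.4 CPM. Their log2 fold changes of -0.80 and -0.85 are near that of the stretch, as is that of APEH, an acylpeptide hydrolase, at -0.74. The deubiquitinases USP19 and USP4, close neighbours on the chromosome, were lower in every mutant library but did not reach the threshold. USP19 had 103, 96.0 and 105 CPM against 73.2, 75.7 and 74.97 CPM and a log2 fold change of -0.44, and USP4 had 30.8, 31.8 and 32.3 CPM against 23.5, 24.4 and 24.0 CPM and -0.40. FBXW12 and UBA7, both under 1 CPM and named after their values were seen, make up the 4 that were not called.

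Mitochondria and metabolism had 24 tested members, 20 of them lower, with a median of -0.83 and a range from SUCLG2 at -1.88 to GBE1 at -0.24. IMPDH2, the enzyme that limits the synthesis of guanine nucleotides (ENSG00000178035, chromosome 3, 49024325 to 49029447), had 393, 381 and 389 CPM in the wild-type and 181, 180.2 and 179.6 CPM in mutant libraries. TKT, transketolase of the pentose phosphate pathway, had 274, 253 and 268 CPM against 123, 136 and 136 CPM. The lines do not overlap in either, and both fell more than the median, by 1.10 and 1.01 on the log2 scale. UQCRC1, a core subunit of respiratory complex III, had 161, 147 and 165 CPM against 78.1, 79.9 and 78.4 CPM. PDHB, the beta subunit of pyruvate dehydrogenase, had 114, 113 and 114 CPM against 60.9, 55.2 and 57.2 CPM. Lower in every mutant library, they had log2 fold changes of -1.0 and -0.97.

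Cell cycle and DNA damage genes had 8 tested members and the lowest median of the lists, -0.94, with 7 lower and CDC25A not called. PPP4R2, a regulatory subunit of protein phosphatase 4, had 165, 174 and 162 CPM against 90.5, 81.5 and 85.7 CPM. Its lines did not overlap, and the log2 fold change was -0.96. NEK4, a kinase of the NIMA family, and CCDC66, a protein of centrosomes and microtubules, had -1.0 and -0.85. The 17 tested genes of the 3p21.3 tumour suppressor cluster had a median of -0.84, and 15 were lower. IFRD2, a protein that binds ribosomes, had 103, 93.1 and 104 CPM against 57.1, 54.3 and 55.5 CPM, and TMEM115, a Golgi membrane protein, had 47.0, 43.2 and 46.7 CPM against 27.6, 31.5 and 30.9 CPM. Neither gene's lines overlapped, and the log2 fold changes were -0.85 and -0.61. SEMA3B and HYAL1, which were named after their values were seen, were not called, at -0.36 and -0.37.

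Axon guidance, adhesion and synapse genes were the least even list. Of 24 tested, 16 were lower and 1 (CNTN3) higher, with quartiles of -1.12 and -0.35 around a median of -0.83. With CNTN3 at the lower limit of its ratio neither this median nor that of the 203 members changes, since the gene stays above both. Only 8 of the 24 were within 0.25 of the median of the stretch, against 131 of all 203, while 5 were steeper and 4 buffered. Among these, CAMKV, CACNA2D2, SEMA3G, PLXNB1 and CACNA2D3 had means from 3.81 to 8.22 CPM. They lie below the 10 CPM from which the spread was narrower, whereas EPHA3 and ROBO2 had 12.8 and 13.3 CPM. The remaining buffered genes, CNTN3 and GRM2, had means under 1 CPM. GRM2, named after its value was seen, had a mean of 0.26 CPM and a standard error of 0.34. Within the list, ROBO1, the other SLIT receptor of the stretch, had 280.4, 278 and 279 CPM in the wild-type libraries and 151, 155 and 151 CPM in the mutant libraries. DAG1, dystroglycan, had 101, 95.8 and 100.0 CPM and 54.8, 56.1 and 54.5 CPM. Both fell in every mutant library, with log2 fold changes of -0.87 and -0.84, whereas ROBO2, the neighbour of ROBO1, had -1.51. PTPRG, a receptor tyrosine phosphatase, and LAMB2, a laminin chain, had -0.71 and -1.06. The log2 fold changes of the paralogs CACNA2D2 and CACNA2D3 lay on opposite sides of the median of the stretch, at -1.39 and -0.08.

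Signalling and cytoskeleton genes had 22 tested members, 18 of them lower, with a median of -0.76. PRKAR2A, a regulatory subunit of protein kinase A, had 204, 221 and 216 CPM in the wild-type libraries and 115, 111 and 113 CPM in the mutant libraries. It was lower in every mutant library, with a log2 fold change of -0.92, and APPL1, an adaptor of endosomes, had -0.76. Genes of the endoplasmic reticulum, Golgi and vesicle traffic were among the most even: 16 of 17 tested were lower, 15 were within 0.25 of the median of the stretch, and their own median was -0.85. TMF1, a golgin, had 86.8, 88.5 and 79.3 CPM against 57.2, 54.6 and 55.4 CPM. SPCS1, a subunit of signal peptidase, had 87.6, 89.2 and 86.8 CPM against 43.3, 41.6 and 41.2 CPM. The lines did not overlap in either, and the log2 fold changes were -0.61 and -1.06, beside -0.85 for ARL6IP5, a membrane protein of the endoplasmic reticulum.

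Many members work in complexes or have close paralogs encoded elsewhere in the genome, and the rule did not use these genes. The lists of them given here were, however, chosen with earlier results of these data known. Lists of 13 complexes or pathways and 9 paralog families, each with 1 member in the stretch, hold 104 other genes, of which 103 were tested. By edgeR's quasi-likelihood test with adjustment over all tested genes, 5 of the 103 were lower, 2 higher and 96 neither, beside 9.36% lower and 11.0% higher over all tested genes. Their median log2 fold change was -0.03 with quartiles of -0.20 and 0.11. The 22 members of these lists had a median of -0.89. In each of the 22 lists the member's log2 fold change was below the median of the other genes, with differences from -1.67 to -0.37. It was below that of a tested partner or paralog in 103 of 105 pairs, where a gene counts once in each list that holds it. In the other 2 pairs the member was higher, and OGT beside BAP1 is such a pair. The members' side of this comparison was selected on, so it is a description, while the values of the genes outside 3p are not fixed by the rule.

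**Figure D5:**
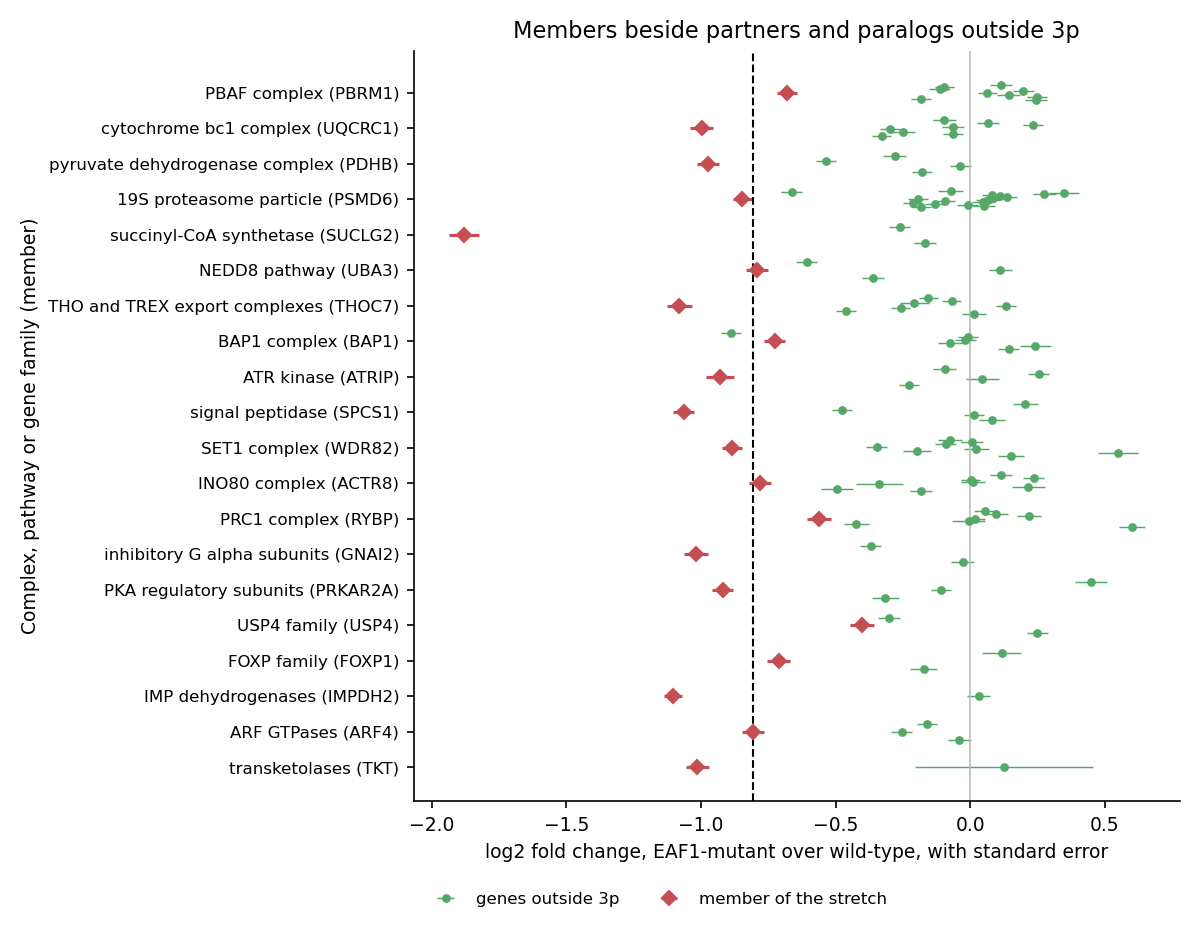
Log2 fold change, EAF1-mutant over wild-type, of the member in the stretch and of its partners or paralogs outside 3p, each point a gene and each bar its standard error, for 20 of the 22 lists (2 paralog families are not drawn). The members run from -1.88 to -0.40, and over all 22 lists their median is -0.89 and that of the other genes -0.03.

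Among complexes, the cytochrome bc1 complex sets UQCRC1 (-1.0) beside 8 other subunits with a median of -0.08. The 17 other genes of the 19S proteasome particle had a median of 0.05 beside PSMD6 (-0.85). The 9 PBAF subunits listed from outside 3p had a median of 0.12 beside PBRM1 (-0.68), whereas SMARCC1, a subunit encoded on 3p just outside the bound, had -0.79. The 7 other genes of the THO and TREX complexes, which export messenger RNA, had a median of -0.16 beside THOC7 (-1.08). SUCLG1, the alpha subunit that joins SUCLG2, had 63.8, 63.8 and 61.0 CPM in the wild-type libraries and 57.1, 54.4 and 56.3 CPM in the mutant libraries. SUCLA2, the ATP-specific alternative to SUCLG2, had 64.0, 63.7 and 63.2 CPM and 53.97, 51.9 and 53.3 CPM. Both were slightly lower in mutant cells and neither passed the threshold, at -0.17 and -0.26 beside -1.88 for SUCLG2. Similar gaps separated SPCS1 (-1.06) from 4 signal peptidase genes (median 0.05), ATRIP (-0.93), the partner of the ATR kinase, from 4 genes (-0.03), and ACTR8 (-0.78) from 8 INO80 subunits (0.01). RYBP (-0.56), a subunit of PRC1, had 7 partners with a median of 0.06, and UBA3 (-0.79), which activates NEDD8, had 3 with -0.36.

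Of the partners and paralogs past the threshold, 4 of the 5 lower and both higher genes are described here. The lower gene that is not described, a paralog, had the lowest log2 fold change of the 103, -1.0, and lies in the list with the lowest median, -0.40. OGT, the enzyme that adds N-acetylglucosamine to proteins and a partner of BAP1 (ENSG00000147162, chromosome X, 71533087 to 71575892), had 336, 334 and 323 CPM in the wild-type libraries and 183, 176 and 178 CPM in the mutant libraries. All mutant libraries were lower, and the log2 fold change was -0.89 (edgeR, adjusted p = 1.32e-15), where BAP1 had -0.73. PSMC6, an ATPase of the 19S particle, had 101, 105 and 102 CPM against 67.5, 63.5 and 64.3 CPM, and NEDD8, the modifier that UBA3 activates, had 85.4, 84.8 and 84.4 CPM against 56.3, 57.5 and 53.4 CPM. Lower in 3 of 3 mutant libraries, they had log2 fold changes of -0.66 (edgeR, adjusted p = 1.1e-12) and -0.61 (edgeR, adjusted p = 7.2e-12). DLAT, the E2 subunit of pyruvate dehydrogenase, had 135, 138 and 138 CPM against 97.0, 93.1 and 93.9 CPM. It was lower in 3 of 3 mutant libraries, by a log2 fold change of -0.53 (edgeR, adjusted p = 1.51e-11). With library totals alone, DLAT and NEDD8 had -0.42 and -0.49, short of the threshold, and DLAT had -0.48 when only genes with at least 10 CPM were tested. SETD1B, a SET1 methyltransferase that works with WDR82, had 9.16, 9.75 and 10.6 CPM against 12.8, 15.5 and 14.9 CPM. RING1, a ubiquitin ligase of PRC1 that works with RYBP, had 19.9, 20.5 and 22.05 CPM against 31.5, 30.7 and 32.4 CPM. These 2 were higher in 3 of 3 mutant libraries, by 0.55 (edgeR, adjusted p = 1.1e-06) and 0.60 (edgeR, adjusted p = 3.66e-10). SETD1B was under the threshold, at 0.48 without wild-type replicate 1 and 0.49 without EAF1-mutant replicate 2.

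In 15 of the 22 lists no gene was called by edgeR's test. Their 57 tested genes had a median of -0.06, 41 of them had an unadjusted p under 0.05, beside 56.2% of all tested genes, and DESeq2 called 1, ACTR5 of the INO80 complex. Its log2 fold change of -0.50 by edgeR is just short of the threshold, and it is past it with TMM factors from genes outside chromosome 3 and without wild-type replicate 2 (-0.56) or EAF1-mutant replicate 2 (-0.52). Of the 57, 32 were below 0 and 25 above.

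Of the 18 tested paralogs 1 was lower by edgeR's test, and their median log2 fold change was -0.07. IMPDH1, which catalyses the same reaction as IMPDH2, had 87.2, 78.0 and 87.7 CPM in the wild-type libraries and 84.5, 86.1 and 87.8 CPM in the mutant libraries. Its level was nearly the same in both lines, with 0.03 beside -1.10 for IMPDH2. Medians of the tested paralogs were -0.20 for 2 beside GNAI2 (-1.02), an inhibitory G alpha subunit, -0.11 for 3 beside PRKAR2A (-0.92), -0.16 for 3 beside ARF4 (-0.81) and -0.03 for 2 beside FOXP1 (-0.71), a forkhead transcription factor. USP4 (-0.40) had 2 paralogs with a median of -0.03, and TKT (-1.01) 1 tested paralog at 0.13. That paralog of TKT had means of 0.25 CPM in wild-type and 0.27 CPM in mutant cells. Its standard error of 0.33 limits what the value shows. The highest log2 fold change among the 18 tested paralogs was 0.45, that of PRKAR1B beside PRKAR2A, which was named after its value was seen. It is under the threshold with TMM, but PRKAR1B was called higher with library totals alone (0.56) and when only genes with at least 10 CPM were tested (0.50).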

How the data were processed

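The data were 6 RNA-seq libraries, 3 of wild-type HEK293T cells and 3 of the EAF1-mutant line, grouped by their labels. Raw counts per Ensembl gene were deposited by the authors, whose methods name Trim Galore for trimming (the labels name Trimmomatic), HISAT2 for mapping to GRCh38 and Rsubread for counting. Symbols and positions came from GENCODE v44, which 57754 of 58395 genes matched. With edgeR 4.0.16 (R 4.3.3), libraries were scaled by TMM, 28025 genes passed filterByExpr, and the quasi-likelihood test was run, with p values adjusted by Benjamini and Hochberg's method over all of them. The procedure was tested on simulated data. Library totals ran from 52541541 to 66611451 counts. Tables and promoter counts were made in Python 3.11.15.

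The members and lists were chosen with earlier results of these data known. Genes named were the 10 highest and 10 lowest members by log2 fold change with at least 1 CPM, the 4 most abundant of each function list, members with partners or paralogs, those partners and paralogs that were called and up to 2 others, genes at the bounds, the 5 nearest the median, the 10 highest by RPKM, and left-out ribosomal protein genes. Exceptions are marked. The alternatives were DESeq2 1.42.0, library totals, TMM factors from genes outside chromosome 3, no filter or at least 10 CPM, replicate number as a block, leaving out each library, other bounds and a looser threshold.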

Additional observations from a re-analysis of the deposited data

How the results depend on the processing

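The median log2 fold change of the tested members stayed below 0 under every alternative tried. It was -0.69 with library totals alone, where the median of all genes is also higher, and -0.76 for genes with at least 10 CPM in a fit of their own, and ran from -0.82 to -0.80 with each library left out in turn. The interquartile range was 0.398 without a filter on low counts and 0.225 with at least 10 CPM, and 0.330 to 0.356 with a library left out. Without a filter 28 members were buffered and 17 steeper, since more genes with few counts are included. With at least 10 CPM, which leaves out the genes with less RNA, 2 were buffered, 5 steeper and 0 higher by edgeR's test. At an unadjusted p under 0.05 that fit also gave 0 members above 0, and DESeq2, which tests genes with less RNA too, called 3 higher. Of the partners and paralogs outside 3p, 68 passed at an adjusted p under 0.05 with any fold change, against 7 of 103 at the thresholds used. By the looser rule 25.6% of all tested genes were lower and 25.9% higher.

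Of the tested members, 146 of 203 were lower with library totals alone and 118 of 138 in the fit with at least 10 CPM. Over all genes, 1840 of 28025 were lower in the former fit and 1125 of 11411 in the latter. With each library left out, 159 to 162 members were lower, 3 to 4 higher, 126 to 133 even, 17 to 20 buffered and 10 to 13 steeper, and 6 to 8 partners or paralogs were called. With a replicate block, 161 members were lower and 3 higher, with a median of -0.81. Over all genes, the fit with the block gave 2631 lower and 3055 higher of 28025. The fits with a library left out gave 2493 to 2664 lower and 2790 to 2924 higher. Libraries with the same replicate number did not pair, with correlations of -0.005, -0.017 and 0.010. With a lower bound of 50 Mb the median was -0.81 and 117 of 146 tested members were lower, and with an upper bound of 75 Mb the median was -0.81 and 154 of 192 were lower.

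All values rest on a single mutant clone and 3 libraries of each line, and the labels do not say that libraries are separate cultures, although the paper speaks of biological replicates. Depth limits the members under 1 CPM, whose median standard error on the log2 scale was 0.31. The cause of the lower counts was not tested.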
